A study of Mus musculus with 2 samples.

Results

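The TRIM genes were examined in osteoblasts, the cells that lay down bone, made apoptotic in culture and derived from old and from young mice. A gene was taken as a member when its Ensembl identifier maps in the GENCODE M21 annotation of GRCm38 to a protein-coding symbol made of Trim and a digit. The deposited table lists 55487 identifiers, of which 68 are members, and no member symbol had more than 1 identifier. RNA sequencing was done on 1 library from old mice, whose treatment label reads day 5, and 1 library from young mice, whose treatment label reads day 0. Age and day therefore cannot be told apart. Per the labels' protocols, cells growing out of bone pieces were passaged 3 times, kept in osteogenic medium for 3 days and exposed to ultraviolet light for 0.5 h in both groups. The labels give no strain, sex, exact age or number of animals or cultures behind a library.

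TRIM proteins carry a RING domain, B-boxes and a coiled coil, and most of them are E3 ubiquitin ligases, the enzymes that choose which protein receives ubiquitin. The C-terminal domain divides them into classes: a PRY-SPRY domain in many antiviral members, a PHD finger with a bromodomain in chromatin regulators, NHL repeats in RNA-binding members, and a COS box in members that bind microtubules. Some members are induced by interferon and tag or restrain proteins of the pathways that sense viral RNA, while others work in every cell as transcriptional corepressors or in the turnover of proteins.

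The libraries held 18114336 reads assigned to genes in the old and 16333396 in the young library, and 12561 genes averaged 1 FPKM or more over both libraries, the filter used throughout. FPKM are fragments scaled to the gene's length and to the library's reads. Ratios are old over young. Brackets give exact 95% counting intervals (Clopper-Pearson), which cover counting error only and not the spread between mice or cultures. With 1 library per group no test was possible and no difference has a replicate check. Of the 8 osteoblast markers, 7 passed the filter, but Bglap, which encodes osteocalcin, had 6 reads in the old and 3 in the young library, and 55.2% of the 50-base words of its transcripts recur in other genes. The markers also differed between the libraries, with FPKM ratios of 7.74 for Spp1, 12.9 for Dmp1 and 0.521 for Sp7. Dmp1 passed the filter through the old library, at 4.85 FPKM (243 reads), against 0.377 FPKM (17 reads) in the young. The ratios were 0.789 for Runx2, 0.792 for Col1a1, 0.936 for Ibsp and 1.18 for Alpl. Alpl was scarce, with 47 reads in the old and 36 in the young library. The part of these marker differences in the TRIM ratios was not tested. The 6 macrophage markers summed to 22.9 FPKM in the old and 25.9 FPKM in the young library. Of these, Adgre1 and Itgam had no reads, but 80.5% of Itgam's 50-base words recur in other genes and 68.7% of its exon bases overlap another gene. Csf1r had 6 reads in the old and 1 in the young library, and the leukocyte marker Ptprc had 0 reads in the old and 1 in the young library. Lyz2 reached 18.4 FPKM in the old and 21.3 FPKM in the young library, and Cd68 4.36 FPKM in the old and 4.51 FPKM in the young library. In such bulk samples, fewer cells that express a gene and less of its RNA per cell cannot be told apart.

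As a family the TRIM genes held the same place in both libraries. They took 0.196% of reads in the old library (35560 reads) and 0.197% in the young (32206 reads), and their summed level was 1054 FPKM in the old and 1053 FPKM in the young library. The filter was passed by 36 of the 68 members. On the scale of log2(FPKM + 1), 33 of these 36 (91.7%) lay within 1.5-fold, as did 90.0% of all genes. On the same scale, no TRIM gene was 2-fold higher, where 1.97% of all 12561 genes were. None was 2-fold lower, where 0.868% of all genes were. Among the protein-coding genes alone these background shares were 1.75% and 0.374%. At 1.5-fold, 3 TRIM genes were higher (5.52% of all genes) and none lower (4.47% of all genes). The latter depends on the added 1 FPKM, as the plain FPKM ratios of Trim62 (0.603) and Trim6 (0.638) were lower by more than 1.5-fold. The log2 ratios ran from −0.53 to 0.78 with a median of −0.01, against −0.07 over all genes.

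The counting interval of the FPKM ratio lay wholly above 1 for 7 of the 36 members and wholly below 1 for 12. Over all genes 20.6% had an interval above 1 and 33.5% had one below 1, so the TRIM counts are near those backgrounds. The remaining 17 intervals held the even ratio.

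**Figure D1:**
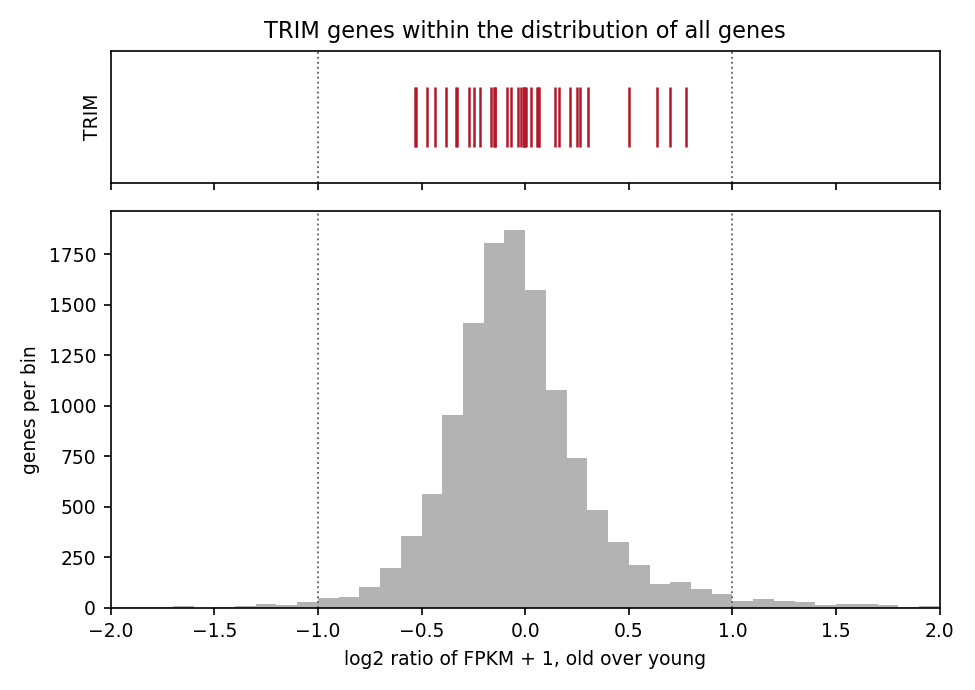
Each line in the upper panel is the log2 ratio (old over young, on FPKM + 1) of a TRIM gene past the filter (36 genes). The lower panel counts all 12561 genes in bins of the same measure, and dotted lines mark 2-fold. The TRIM genes lie between −0.53 and 0.78, inside both dotted lines. The axis ends at 2 in either direction, beyond which lie 32 genes above and 6 below.

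In level, Trim28 stood first in both libraries. It encodes KAP1, the corepressor that KRAB zinc finger proteins recruit to silence retroelements, and it was at 223 FPKM in the old and 214 FPKM in the young library. That placed it 424th in the old and 425th in the young library among the 12561 genes. Next by mean level came Trim59, a membrane-anchored ligase, at 63.2 FPKM in the old and 91.5 FPKM in the young library. Trim35, known for binding the glycolytic enzyme pyruvate kinase M2, was at 70.1 FPKM in the old and 77.6 FPKM in the young library. Trim30a, Trim26 and Trim8 followed, and Trim41 and Trim24 completed the 8 most abundant. Trim41, which was at 36.1 FPKM in the old and 38.4 FPKM in the young library, had a ratio of 0.940 [0.852 to 1.04].

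The order of levels depends on the gene length behind FPKM, which here was the mean over a gene's annotated transcripts. For Trim28 that length was 1010 bases, while its annotated exons together cover 4158 bases. Scaled to the merged exons, Trim28 was still first at 54.2 FPKM in the old and 51.9 FPKM in the young library. On that scale Trim8 moved to the second place, while Trim24 stood at place 16 and Trim2 at place 25. Plain FPKM ratios between libraries do not depend on the length, but the filter and the log2 ratio of FPKM + 1 do. Scaled to the merged exons, Trim16 was at 1.47 FPKM in the old and 0.643 FPKM in the young library. Trim65 was then at 0.873 FPKM in the old and 0.895 FPKM in the young library, under the filter. The median member past the filter was at 19.6 FPKM in the old and 19.0 FPKM in the young library, where the median over all genes past it was 17.5 FPKM in the old and 18.2 FPKM in the young.

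**Figure D2:**
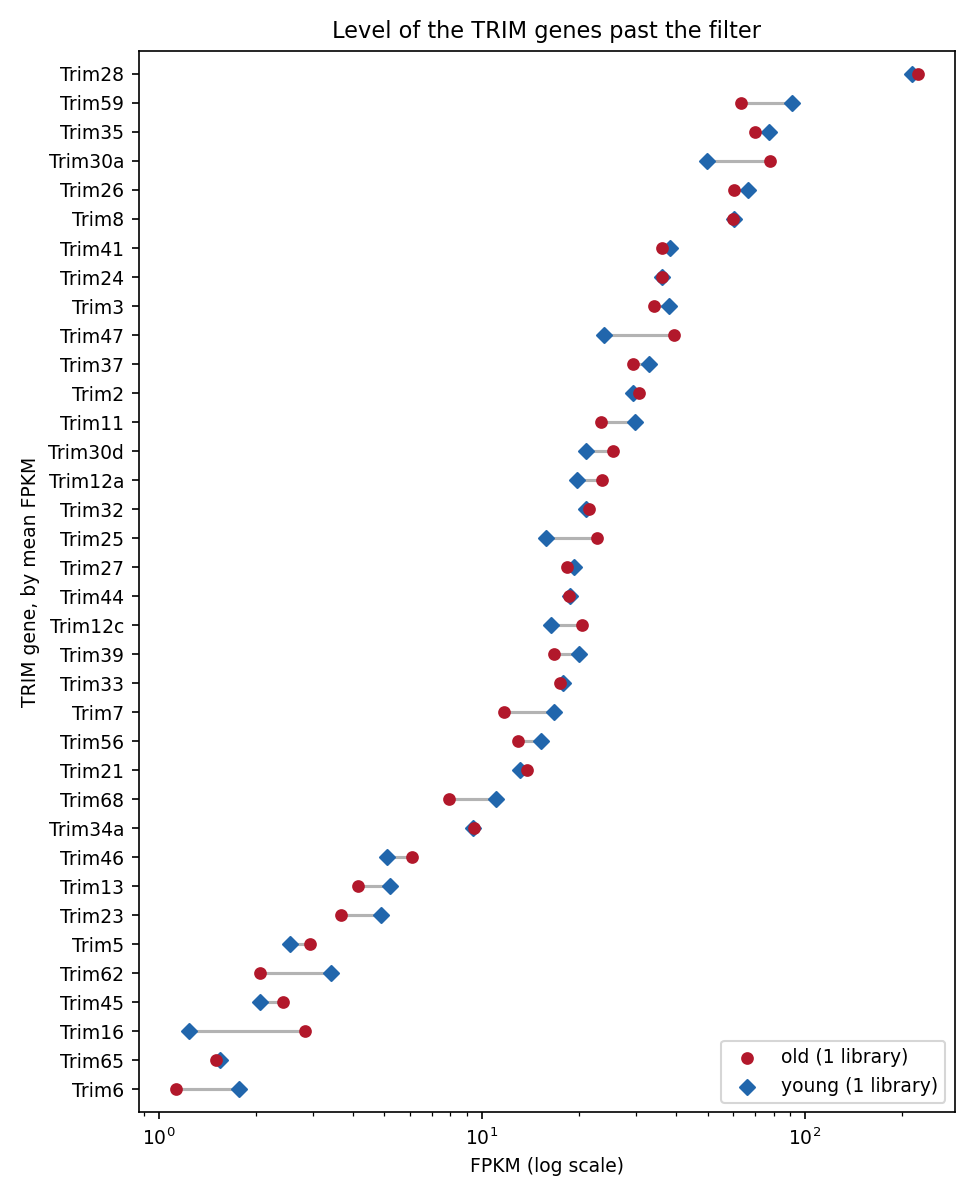
Level in FPKM (log axis) of the 36 TRIM genes past the filter, ordered by their mean, with a circle for the old and a diamond for the young library (1 library each). Trim28 stands above 200 FPKM in both, and the widest gaps among the genes over 20 FPKM are those of Trim30a, Trim47 and Trim59.

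Trim16 had the highest FPKM ratio of the members past the filter. It lacks the RING domain and is known to bind galectin-3 at damaged lysosomes. Trim16 (ENSMUSG00000047821, chromosome 11, 62820231 to 62850808, GRCm38) was low, at 2.84 FPKM in the old and 1.24 FPKM in the young library, on 122 reads in the old and 48 in the young library. Its FPKM ratio was 2.29 [1.63 to 3.27], and its log2 ratio of FPKM + 1 was 0.78, since the added 1 shrinks differences of low genes. With 5 FPKM added its log2 ratio was 0.33, below 0.62 for Trim47, 0.60 for Trim30a and 0.42 for Trim25. It was the single TRIM gene past the filter whose plain FPKM ratio exceeded 2.

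Trim47 and Trim30a were higher at well-read levels. Trim47 (ENSMUSG00000020773, chromosome 11, 116105752 to 116127210), a PRY-SPRY member, was at 39.2 FPKM in the old and 23.8 FPKM in the young library, a ratio of 1.65 [1.47 to 1.85]. Of its exon bases, 8.23% overlap Trim65, and Trim65, which activates the RNA sensor MDA5, was close to even at 1.51 FPKM in the old and 1.55 FPKM in the young library. Trim30a (ENSMUSG00000030921, chromosome 7, 104409025 to 104465193), a mouse gene that restrains Toll-like receptor signalling to NF-kB, was at 77.8 FPKM in the old and 49.7 FPKM in the young library. The levels rest on 2171 reads in the old and 1251 in the young library, an FPKM ratio of 1.56 [1.46 to 1.68].

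Trim25 followed. Its product attaches ubiquitin chains in the activation of the RNA sensor RIG-I. Trim25 (ENSMUSG00000000275, chromosome 11, 88999376 to 89020293) was at 22.7 FPKM in the old and 15.8 FPKM in the young library, an FPKM ratio of 1.44 [1.33 to 1.55] on 1726 reads in the old and 1081 in the young library. By log2 ratio Trim16 ranked 428th, Trim47 541st, Trim30a 610th and Trim25 872nd of 12561 genes. These ranks are in the upper tail, though below the 248 genes that were 2-fold or more higher. The rank of Trim16 depends on the added 1 FPKM.

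**Figure D3:**
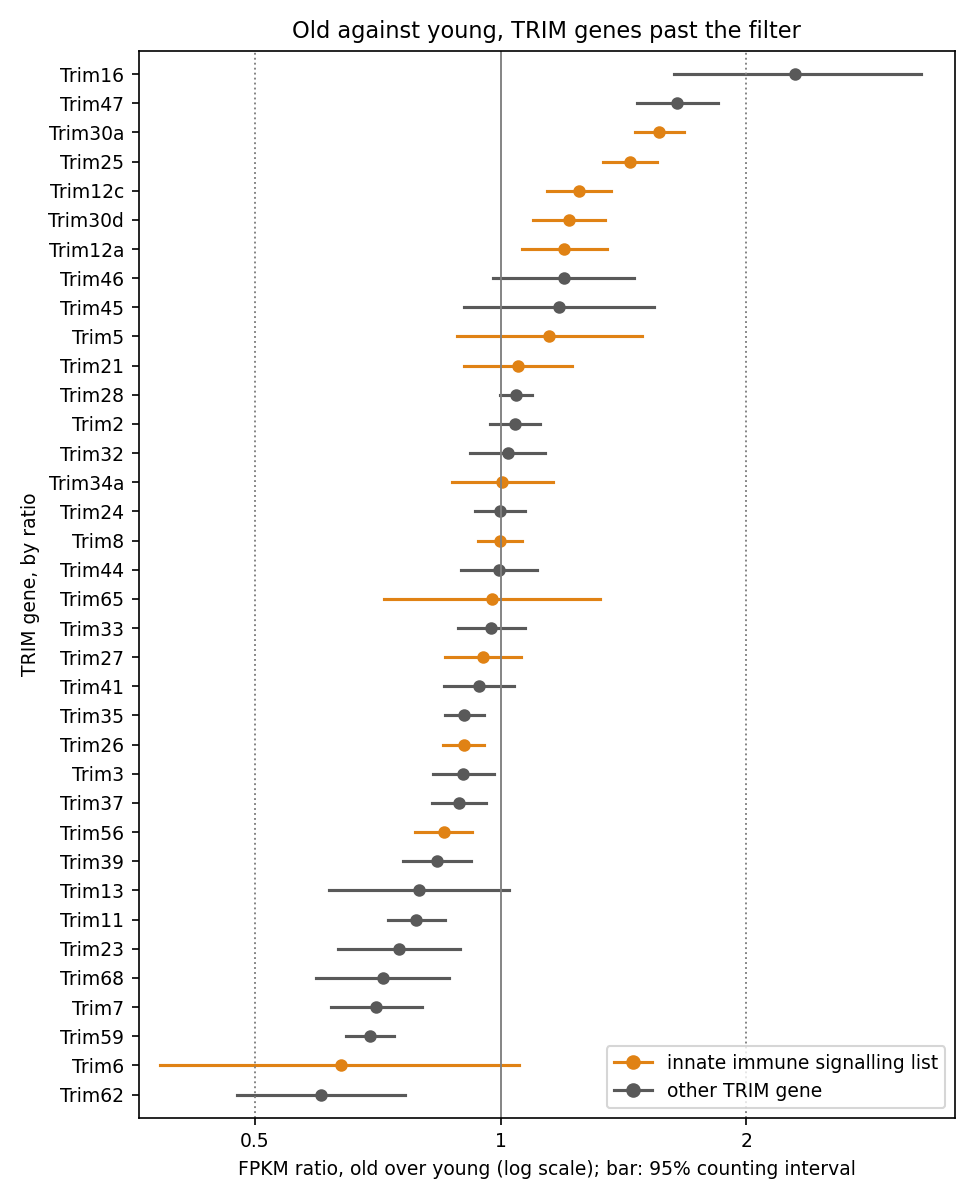
FPKM ratio, old over young (log axis), of the 36 TRIM genes past the filter. Bars are 95% counting intervals, orange marks the innate immune signalling list, the solid line is an even ratio and dotted lines are 2-fold. The intervals of Trim16, Trim47, Trim30a, Trim25, Trim12c, Trim30d and Trim12a lie above 1, and Trim62 has the lowest ratio at 0.603.

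A tandem array on chromosome 7 holds 10 TRIM genes related to the retrovirus restriction factor TRIM5 of primates, within 289 kb and with no other protein-coding gene between them. Of these, 7 passed the filter, and 6 of the 7 had log2 ratios above 0, as did 40.4% of all genes. Their median was 0.25, against −0.06 over the 913 genes past the filter on chromosome 7. Trim30d was at 25.4 FPKM in the old and 20.99 FPKM in the young library, a ratio of 1.21 [1.09 to 1.34]. Trim12c was at 20.5 FPKM in the old and 16.4 FPKM in the young library, a ratio of 1.25 [1.14 to 1.36]. Trim12a was at 23.6 FPKM in the old and 19.7 FPKM in the young library, a ratio of 1.197 [1.06 to 1.35]. Of the 7 array genes past the filter, 4 had intervals above 1, where 20.6% of all genes did. They were Trim30a, Trim30d, Trim12c and Trim12a, with Trim30a well ahead of the others.

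The array also held genes that did not share this pattern. Trim34a was even at 9.44 FPKM in the old and 9.40 FPKM in the young library, and Trim5 had a ratio of 1.15 [0.883 to 1.49]. Trim6, which makes unanchored ubiquitin chains that act on the kinase IKK-epsilon, was at 1.13 FPKM in the old and 1.77 FPKM in the young library on 29 reads in the old and 41 in the young library. Trim34b had 8 reads in the old and 4 in the young library, Trim30c had 0 in the old and 2 in the young library, and Trim30b had none in either. Reads of these paralogs are partly uncertain, because 50-base words of their transcripts recur in other genes: 60.9% for Trim34a, 56.8% for Trim34b, 43.1% for Trim5, 38.2% for Trim12c, 16.6% for Trim12a, 13.5% for Trim30d and 10.6% for Trim30a.

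**Figure D4:**
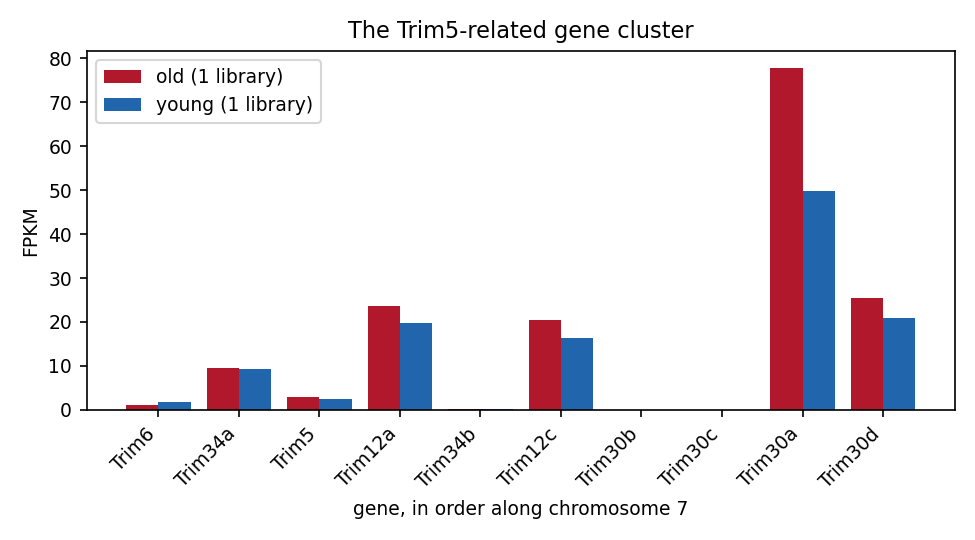
FPKM of the 10 TRIM genes of the array in their order along chromosome 7, with 1 bar for the old and 1 for the young library. Trim30a, at 77.8 FPKM in the old and 49.7 FPKM in the young library, stands above its neighbours, while Trim34b, Trim30b and Trim30c are near or at 0.

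The promoters of the array are shown because 6 of its 10 genes carry 1 motif. The interferon-stimulated response element, the DNA word bound by the interferon-activated factor ISGF3 and by IRF proteins, was searched as GAAA, any 2 bases and GAAA on either strand from 250 bases before to 50 bases after each RefSeq start (GRCm38.p6). RefSeq promoters were found for 53 of the 68 members, and 9 of these (16.98%) held the motif, against 3.99% of all 27025 genes with a promoter and 3.44% of all 32851 promoters. All 9 were among the 29 members that passed the filter and had a promoter (31.0%), where 3.61% of 9027 genes past the filter held it. The 9 were Trim2, Trim5, Trim12a, Trim12c, Trim21, Trim26, Trim30a, Trim30d and Trim34a. A gene was counted when any of its promoters matched, and the 53 members had 67 promoters, 10 with the motif. The match of Trim2 (84212801 to 84212810) belongs to a start inside the gene, whose 5′ end is at 84306877. Trim30a had a second match (104446114 to 104446123), at base 3 of a transcript that starts inside the gene. Since 6 of them are paralogs of 1 array, the matches are not independent of each other. A match is a description of these letters and not of binding.

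The sequences below run 5′ to 3′ on the gene's strand, with the motif in capitals. For Trim30a the 250 bases before the start are given (chr7:104465194-104465443, minus strand), for Trim30d, Trim12c and Trim5 the last 100 bases before it (chr7:104507850-104507949, chr7:104353350-104353449 and chr7:104288107-104288206, all minus strand), and for Trim12a 30 bases around the motif (chr7:104315466-104315495, minus strand).
Trim30a: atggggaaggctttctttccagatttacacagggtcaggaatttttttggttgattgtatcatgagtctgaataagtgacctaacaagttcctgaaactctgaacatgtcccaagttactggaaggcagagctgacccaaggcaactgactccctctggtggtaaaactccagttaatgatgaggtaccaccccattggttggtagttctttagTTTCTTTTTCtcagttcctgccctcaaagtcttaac
Trim30d: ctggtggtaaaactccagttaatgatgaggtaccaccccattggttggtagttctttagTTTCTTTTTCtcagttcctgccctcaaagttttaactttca
Trim12c: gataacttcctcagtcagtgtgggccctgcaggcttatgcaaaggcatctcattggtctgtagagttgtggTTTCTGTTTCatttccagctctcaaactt
Trim5: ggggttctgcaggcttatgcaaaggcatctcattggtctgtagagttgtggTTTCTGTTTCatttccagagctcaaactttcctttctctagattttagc
Trim12a: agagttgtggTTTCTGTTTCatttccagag

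In Trim30a and Trim30d the motif begins 36 and 41 bases before the start, and 69 of 70 bases around it (30 before the motif, the motif and 30 after) are the same. The genes had ratios of 1.56 [1.46 to 1.68] and 1.21 [1.09 to 1.34], counting intervals that do not overlap. In Trim12a and Trim5 all 70 bases around the motif are the same, and Trim12c shares 67 of 70 with either. Trim30a and Trim5 share 36 of 70. By RefSeq the motif of Trim12a begins at base 11 of the transcript, whereas the GENCODE gene boundary at 104315466 leaves the motif (104315476 to 104315485) outside the gene, on its upstream side.

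Trim34a in the array and Trim2, Trim21 and Trim26 outside it are given because they carry the word without a higher level in the old library beyond counting error. The same holds for Trim5, shown above, with a ratio of 1.15 [0.883 to 1.49]. Trim34a had a ratio of 1.004 [0.870 to 1.16] and Trim2 one of 1.04 [0.971 to 1.12], while Trim21 and Trim26 hold overlapping pairs of the motif. Shown are 30 bases for Trim34a (chr7:104244457-104244486, plus strand), Trim2 (chr3:84212791-84212820, minus strand) and Trim21 (chr7:102565447-102565476, minus strand) and 56 bases for Trim26 (chr17:36836966-36837021, plus strand). A promoter of Trim47 (250 bases, chr11:116110236-116110485, minus strand) is given because that gene had the second highest FPKM ratio. None of its RefSeq promoters searched held a match to the word. The one shown belongs to a start inside the GENCODE gene, whose 5′ end is at 116127210. The sequence at that 5′ end is not shown.
Trim34a: tggtttggagTTTCAGTTTCttttctctgc
Trim2: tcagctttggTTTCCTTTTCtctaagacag
Trim21: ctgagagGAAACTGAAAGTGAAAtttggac
Trim26: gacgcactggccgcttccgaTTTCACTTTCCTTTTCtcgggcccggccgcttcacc
Trim47: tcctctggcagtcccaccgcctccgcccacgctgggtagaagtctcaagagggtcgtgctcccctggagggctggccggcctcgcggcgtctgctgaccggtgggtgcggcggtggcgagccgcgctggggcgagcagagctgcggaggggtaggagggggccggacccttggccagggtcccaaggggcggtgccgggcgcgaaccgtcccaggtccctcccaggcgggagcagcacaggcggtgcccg

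The list of TRIM genes known from innate immune signalling held 20 members, of which 14 passed the filter. None was 2-fold changed, 5 had intervals above 1 (20.6% of all genes) and 2 below 1 (33.5% of all genes). The median log2 ratio was 0.04, against −0.12 for the 22 other TRIM genes past the filter. All 7 array genes past the filter, with a median of 0.25, are among the 14. The part of the array in the difference between the medians was not tested. Trim21, a cytosolic receptor for antibody-coated virus, was at 13.8 FPKM in the old and 13.1 FPKM in the young library, a ratio of 1.05 [0.901 to 1.22]. Trim26, which acts on the interferon factor IRF3, was lower at 60.1 FPKM in the old and 66.7 FPKM in the young library, a ratio of 0.901 [0.850 to 0.955]. Trim56, known to act on the adaptor STING, was at 13.0 FPKM in the old and 15.2 FPKM in the young library, a ratio of 0.851 [0.786 to 0.922]. So the list went both ways, and its higher members were Trim25 and part of the chromosome 7 array.

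Other members of that list were even or scarce. Trim8, which binds the cytokine signalling inhibitor SOCS1, was at 60.1 FPKM in the old and 60.3 FPKM in the young library. Trim27 had a ratio of 0.952 [0.855 to 1.06] and Trim65 one of 0.975 [0.719 to 1.32]. Trim14, an adaptor of the RNA-sensing protein MAVS, had 3 reads in the old and 4 in the young library. Trim38 and Trim31, both known as regulators of these pathways, had no reads in either library.

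The chromatin members past the filter were close to even. Trim24, a coregulator of nuclear receptors that also ubiquitinates p53, was at 36.04 FPKM in the old and 36.1 FPKM in the young library, a ratio of 0.997 [0.929 to 1.07]. Trim33, which works with the SMAD factors of TGF-beta signalling, was at 17.4 FPKM in the old and 17.9 FPKM in the young library, a ratio of 0.973 [0.886 to 1.07]. Trim28 had an FPKM ratio of 1.04 [0.998 to 1.09] on 4084 reads in the old and 3528 in the young library. The related Trim66 had 13 reads in the old and 6 in the young library. The 3 genes past the filter had log2 ratios between −0.04 and 0.06, and all 3 intervals held an even ratio.

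Among the lower members was Trim59. Trim59 (ENSMUSG00000034317, chromosome 3, 69035288 to 69044755) had 1503 reads in the old and 1961 in the young library, an FPKM ratio of 0.691 [0.646 to 0.740]. Trim13, the other membrane-anchored member and a ligase of the endoplasmic reticulum, was at 4.14 FPKM in the old and 5.21 FPKM in the young library, a ratio of 0.795 [0.616 to 1.02]. Trim62 had the lowest FPKM ratio, at 2.06 FPKM in the old and 3.42 FPKM in the young library on 121 reads in the old and 181 in the young library (0.603 [0.475 to 0.763]). With 5 FPKM added, its log2 ratio was −0.25 and that of Trim59 −0.50. Trim62 is a PRY-SPRY member known for its part in epithelial polarity. Both membrane-anchored members were thus lower in the old library, though the interval of Trim13 held the even ratio.

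Trim7, Trim68, Trim23 and Trim11 were lower too. Trim7, first described as a partner of glycogenin, the primer of glycogen synthesis, was at 11.7 FPKM in the old and 16.7 FPKM in the young library, a ratio of 0.704 [0.619 to 0.800]. Trim68, a regulator of the androgen receptor, was at 7.91 FPKM in the old and 11.04 FPKM in the young library, a ratio of 0.716 [0.593 to 0.864]. Trim23, which carries an ARF-type GTPase domain, was at 3.66 FPKM in the old and 4.88 FPKM in the young library. Its ratio was 0.750 [0.631 to 0.891]. Trim11 had a ratio of 0.788 [0.728 to 0.854], and the intervals of Trim39, Trim37, Trim3 and Trim35 also lay below 1, with ratios from 0.835 to 0.903. Trim37, a centrosomal ligase mutated in the human growth disorder Mulibrey nanism, was at 29.4 FPKM in the old and 33.0 FPKM in the young library.

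The NHL-repeat class was close to even. Trim2, known for neurofilament turnover in neurons, was at 30.6 FPKM in the old and 29.4 FPKM in the young library, and Trim32, mutated in a human limb-girdle muscular dystrophy, at 21.5 FPKM in the old and 21.1 FPKM in the young library. Trim3 was at 34.1 FPKM in the old and 37.9 FPKM in the young library, a ratio of 0.900 [0.825 to 0.982]. Trim71, the stem cell and embryonic member also called LIN-41, had 6 reads in the old and 4 in the young library. Trim44, which lacks a RING, was at 18.7 FPKM in the old and 18.8 FPKM in the young library. Trim45, with a filamin-type domain, had a ratio of 1.18 [0.903 to 1.54].

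Of the COS-box members of neurons and striated muscle, only Trim46 passed the filter. Trim46, which bundles microtubules at the start of the axon, was at 6.09 FPKM in the old and 5.10 FPKM in the young library, a ratio of 1.19 [0.979 to 1.46]. Its class mates were near 0: Trim36 had 16 reads in each library, Trim67 had 2 in the old and 3 in the young, and Trim9 had none. Of the 3 neuronal markers, Rbfox3 and Snap25 had no reads, and Syt1 had 18 reads in the old and 12 in the young library. Of the MuRF ligases of striated muscle, Trim54 and Trim55 had no reads. Trim63 (MuRF1), the atrophy-linked ligase, had 14 reads in the old and 1 in the young library, an FPKM ratio of 12.6 with an interval from 1.92 to 534. Trim72, a protein of membrane repair in muscle, had 7 reads in the old and 5 in the young library, and the muscle factor Myod1 had none. Of the 5 muscle markers only Des passed the filter, at 1.71 FPKM in the old and 1.11 FPKM in the young library. Acta1 had 5 reads in the old and 16 in the young library, Ckm had 4 in the old and none in the young, and Myog had 1 in the old and none in the young. The part of muscle cells in the Trim63 counts was not tested.

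The 32 members under the filter were of 2 kinds. No reads were found in either library for 18 members: Trim9, Trim15, Trim30b, Trim31, Trim38, Trim40, Trim42, Trim43b, Trim43c, Trim50, Trim52, Trim54, Trim55, Trim58, Trim60, Trim61, Trim75 and Trim80. A count of 0 allows up to 3 reads, which is 0.0564 to 0.149 FPKM in the old and 0.0626 to 0.165 FPKM in the young library, depending on the gene's length. The other 14 had reads, and at most 27 in a library. Trim69 was the highest of them, at 0.842 FPKM in the old and 0.346 FPKM in the young library on 27 reads in the old and 10 in the young library, an FPKM ratio of 2.43 [1.14 to 5.64]. Trim10 and Trim29 each had 1 read in the old library and none in the young. Trim17 had 7 in the old and 1 in the young library, and Trim43a had 1 in each.

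Some proteins are built like TRIMs but named otherwise. Of 9 such genes 6 passed the filter, none 2-fold changed, and the median log2 ratio was −0.18. The highest was Pml, the scaffold of nuclear bodies and an interferon-induced gene, at 34.8 FPKM in the old and 22.9 FPKM in the young library, a log2 ratio of 0.58. Rnf135, the RIPLET ligase that acts on RIG-I, had a log2 ratio of −0.35, Mid2 one of −0.28 and Fsd1l one of −0.19. The ubiquitin-activating and conjugating enzymes that feed TRIM ligases were even as a list, with none of 16 genes 2-fold changed and a median log2 ratio of −0.0043. Their largest differences were in Ube2l6, the E2 of ISG15, at 56.7 FPKM in the old and 38.8 FPKM in the young library, and in Ube2d1, at 27.7 FPKM in the old and 36.5 FPKM in the young library. Ube2e3 had a log2 ratio of −0.30 and Uba7, the E1 of ISG15, one of 0.30.

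Partners of TRIM ligases in RNA sensing and NF-kB signalling had an SD of 0.58 across their log2 ratios. It was 0.32 across the TRIM genes and 0.40 across all genes past the filter. Of the 19 past the filter, 3 were 2-fold higher and none lower, while the median log2 ratio was −0.09 and the mean was 0.16. The 3 were Dhx58, an RNA sensor related to RIG-I, at 54.3 FPKM in the old and 19.2 FPKM in the young library; Irf7, a master factor of interferon genes, at 37.9 FPKM in the old and 15.9 FPKM in the young library; and Tmem173, which encodes STING, at 7.36 FPKM in the old and 3.06 FPKM in the young library. Ifih1, the MDA5 gene, had a log2 ratio of 0.87, and Ddx58, the RIG-I gene on which Trim25 acts, was at 109 FPKM in the old and 71.8 FPKM in the young library, a ratio of 1.52 [1.44 to 1.61]. On the log2 scale, that is 0.60 for Ddx58 and 0.50 for Trim25. The kinase gene Ikbke was lower, with a log2 ratio of −0.69.

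The chromatin and p53 partners of Trim24, Trim28 and Trim33 had none of 15 genes 2-fold changed and a median log2 ratio of 0.08. Zfp809, a KRAB zinc finger protein that brings Trim28 to retroviral DNA, was at 10.5 FPKM in the old and 20.4 FPKM in the young library, a log2 ratio of −0.90. Chd3, a helicase of the NuRD complex, was at 103 FPKM in the old and 56.1 FPKM in the young library, a log2 ratio of 0.86. Cbx1, an HP1 protein, had −0.30 and Smad3 had 0.27. Setdb1, the histone methyltransferase that Trim28 recruits, was at 22.7 FPKM in the old and 22.0 FPKM in the young library.

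A list of 7 interferon-response genes was set beside the TRIM genes. Of those 7, 6 passed the filter and 3 were 2-fold higher, where 1.97% of all genes were. The log2 ratios of the 6 ran from 0.60 to 1.84. Ifit1 was at 64.2 FPKM in the old and 17.2 FPKM in the young library, Ifit3 at 60.3 FPKM in the old and 17.7 FPKM in the young, and Isg15 at 196 FPKM in the old and 86.2 FPKM in the young. Stat2 had a log2 ratio of 0.75. Trim30a, at 0.64, was the single TRIM gene of the innate list inside that range, and Trim25, at 0.50, and Trim21, at 0.06, were under it. Trim16, at 0.78, and Trim47, at 0.70, were also inside the range but are not on the innate list. Whether TRIM and interferon-response genes differ beyond the spread between mice was not tested.

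**Figure D5:**
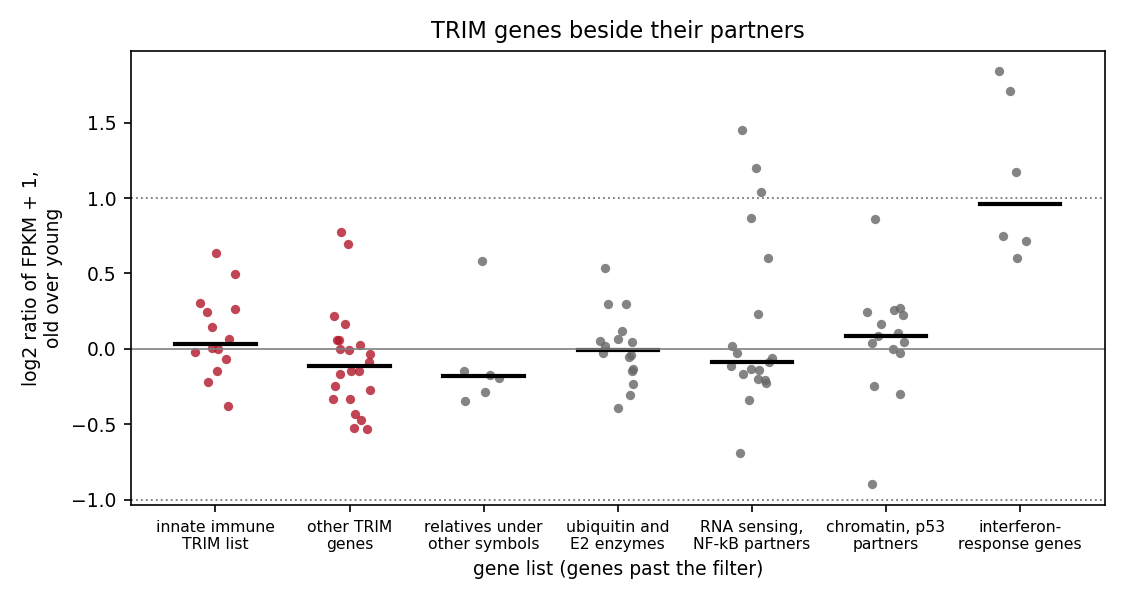
Log2 ratio (old over young, on FPKM + 1) of each gene past the filter in 2 groups of TRIM genes (red) and 5 lists of related genes (grey). Black bars are medians, and dotted lines mark 2-fold. The TRIM medians of 0.04 and −0.12 lie near 0, while that of the interferon-response genes is 0.96.

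Other RING ligases gave a further setting for the family. Of 85 Rnf genes, 56 passed the filter, none was 2-fold changed, and the median log2 ratio was −0.14. Their intervals lay above 1 for 6 (20.6% of all genes) and below 1 for 26 (33.5% of all genes). Of 10 Traf genes, 8 passed, none was 2-fold changed, and the median was −0.19. The TRIM median of −0.01 lay above both. No test of this difference was run, as genes of a family are not replicates of an age.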

How the data were processed

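mRNA was sequenced in 1 library of apoptotic osteoblasts from old mice and 1 from young mice, grouped by their age labels. The deposited table gives FPKM made by the authors, 1 value per gene and library. Per the submitters' processing notes, the tools were edgeR, fastp, HTSeq and STAR and the build was mm10. No version, role, annotation release, filter or strand setting is given in the sources used here.

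Gene symbols, coordinates and lengths were taken from GENCODE M21 (GRCm38), which held 55227 of the 55487 identifiers. Read numbers were worked out from the FPKM steps with the rounded mean transcript length as gene length. Of the values above 0, 97.6% were whole within 0.01 in either library (20377 of 20884 in the old, 19378 of 19854 in the young), and all 68 TRIM genes were whole in both. These reads gave the counting intervals and limits. PCR copies are not independent molecules, so both cover counting error only.

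Genes averaging 1 FPKM or more over both libraries were compared by log2 of (FPKM + 1) in the old library over that in the young, and a call was 2-fold. Shared sequence is the share of 50-base transcript words, taken every 25 bases, found in another gene on either strand. Without stated strand use, reads of overlapping genes cannot be told apart. Named were the 6 highest and 6 lowest ratios, the 8 highest levels, preset members of each class and up to 4 genes per list with the largest differences; the remaining members are named to account for all, chosen after their values were seen. The members and lists were chosen with earlier results of these data known. Promoters are RefSeq's (GRCm38.p6). Ratio and interval functions were tested on simulated data. Python 3.11.15, pandas 2.3.3, numpy 2.4.6 and scipy 1.17.1 were used.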

Additional observations from a re-analysis of the deposited data

How the results depend on the processing

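The count of 0 TRIM genes at 2-fold lower held under every alternative tried, and that of 0 at 2-fold higher held at a pseudocount of 5, with no filter, with a mean of at least 10 FPKM, after rescaling without the most abundant genes, after centring on the median of all genes and without the 7 members that share sequence or overlap. It was 1 (Trim16) at a pseudocount of 0.1 and, in an alternative chosen after seeing the data, 1 with no pseudocount; at a threshold of 1.5-fold it was 3. The added 1 FPKM is what keeps Trim16 under 2-fold. At a pseudocount of 5 the log2 ratio moved to 0.33 for Trim16 and −0.25 for Trim62, and Trim47 (0.62) and Trim59 (−0.50) then stood at the ends. Over all genes, a pseudocount of 0.1 gave 408 higher and 236 lower, a pseudocount of 5 gave 101 and 20, the stricter filter gave 106 and 27, and no pseudocount gave 425 and 253.

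The TRIM median lay between −0.07 (without the shared or overlapping members) and 0.05 (centred). Centring changed the sign for 5 of the 36 members, all near 0, and put 20 above 0 and 16 below, where 15 and 21 were before. It moved Trim28 beyond its counting interval, from a log2 ratio of 0.06 to 0.13. The counting intervals were not centred, while the median plain log2 ratio over all genes was −0.07. The intervals of Trim35, Trim26, Trim37 and Trim3, with upper limits from 0.954 to 0.982, therefore lie below 1 only on the deposited scaling. No paired analysis was possible because each group has 1 library. Leaving out a replicate was not possible for the same reason. Depth limits the 32 members under 1 FPKM, none of which had over 27 reads in a library.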
